A study of Mus musculus with 10 samples.

Results

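Aminoacyl-tRNA synthetases are the enzymes that attach each amino acid to its transfer RNA, the step that supplies the ribosome with charged tRNA. The livers of refed and fasted mice were examined for the genes that encode 18 cytosolic and 16 mitochondrial synthetases. Members were taken by gene symbol from a fixed list, and each of the 34 symbols matched 1 of the 41388 genes in the count files. The list was set with earlier results of these data known, and each member passed the filter on low values that left 13444 genes for testing.

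In animals, mitochondria translate their own small genome, and most mitochondrial synthetases are encoded by nuclear genes separate from those of the cytosolic enzymes. The suffix 2 marks the mitochondrial gene of a pair. Gars and Kars encode both the cytosolic and the mitochondrial enzyme for glycine and lysine, Eprs joins the glutamate and proline enzymes in 1 protein, and Farsa and Farsb are the alpha and beta subunits of the cytosolic phenylalanine enzyme. Several cytosolic synthetases are held in a multisynthetase complex, and many cytosolic synthetase genes are known targets of the transcription factor ATF4, which is made when amino acids run short or the endoplasmic reticulum is under stress.

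Poly-A RNA was sequenced from the livers of adult littermates aged 12 weeks on a strain written C57B/6J. WT mice were refed for 2 h after a 22 h fast (WT Refed, n = 2) or fasted for 24 h (WT Fasting, n = 3), and NAMPT LKO mice, which lack hepatocyte Nampt through a Cre recombinase driven by the albumin promoter, were fasted for 24 h (NAMPT LKO Fasting, n = 5). Nampt encodes the enzyme that recycles nicotinamide for NAD+ synthesis. WT mice carried the loxP-flanked Nampt alleles without Cre according to the study's methods, and the series held no refed NAMPT LKO livers, so no comparison here separates genotype from diet in refed mice. Every group had been fasted, so a fall with fasting and a rise on refeeding cannot be told apart. Below, fell and rose mean lower and higher in the fasted than in the refed livers. The numbered livers of a group were taken as separate mice, and p-values measure the spread between these samples. The comparisons address how the synthetases differed between the refed and the fasted WT liver, and whether they differed with hepatocyte Nampt in the fasted liver.

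Total counts per library ranged from 30603080 to 43434139. Nampt was at 78.0 and 67.8 CPM (counts scaled to library size with TMM factors) in WT Refed, at 63.0, 73.4 and 140.9 CPM in WT Fasting, and at 11.8 to 15.3 CPM in NAMPT LKO Fasting livers, so the deletion showed in each library labelled as LKO. Sums over marker genes and over interferon-induced genes, here and below, are in CPM scaled to library size without TMM factors. Hepatocyte markers summed to between 73546 and 110711 CPM in the 10 livers. A pair of libraries stood apart. NAMPT LKO mouse 5 had 21.1% of its counts on genes of the mitochondrial genome, against 7.42% to 12.9% in the other 9, and WT Fasting mouse 3 had 2571 summed CPM of 10 interferon-induced genes against 99.4 to 209 in the other 9. In bulk liver, fewer cells of a type and less RNA per cell cannot be told apart.

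Because the binding sequence of ATF4 is known, promoter windows of 250 bases before to 50 bases after the start of each RefSeq gene (GRCm38.p6) were searched for the core of the C/EBP-ATF response element, TGATGNAA, on both strands. Windows were found for 11 of 18 cytosolic and 14 of 16 mitochondrial synthetases. The core was present in 5 of the 11 cytosolic genes with a window (45.5%) and in 0 of the 14 mitochondrial genes. Over all genes it was present in 1304 of 32851 windows (3.97%). Members were thus counted by gene, and all genes by window. The 5 cytosolic genes were Aars, Gars, Iars, Tars and Yars, the enzymes for alanine, glycine, isoleucine, threonine and tyrosine. The matches of Gars, Iars, Tars and Yars are printed 5′ to 3′ on the strand of the gene, to show how alike the letters are, with the match in capitals; TTGCATCA and TTTCATCA are the core read from the other strand. A match is a description of the letters and not a measured binding site.
Gars, chr6:55037960-55037989, plus strand: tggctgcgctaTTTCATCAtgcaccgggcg
Iars, chr13:49682126-49682155, plus strand: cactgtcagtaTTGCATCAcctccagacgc
Tars, chr15:11399655-11399684, minus strand: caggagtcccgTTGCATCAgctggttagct
Yars, chr4:129189895-129189924, plus strand: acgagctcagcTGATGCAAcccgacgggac

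In the RefSeq numbering, where negative positions lie upstream of the start, the Gars match began at -30, the Tars match at -15, the Yars match at 3 and the Iars match at 7. The motif of the nuclear respiratory factor NRF1 was searched as GCGC, any 2 bases and GCGC, which reads the same on both strands. It was present in 3 of the 11 cytosolic genes with a window (Farsb, Kars and Tars). Of the 14 mitochondrial genes 2 held it (Iars2 and Mars2), and of all windows 6.23% did.

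Members of both compartments were lower in fasted than in refed WT livers. In edgeR's quasi-likelihood test, 4 of 18 cytosolic synthetases fell (Farsb, Iars, Yars and Hars) and 3 of 16 mitochondrial synthetases fell (Ears2, Tars2 and Rars2), and none rose. Of the 13444 genes tested, 7.04% passed the same threshold, an adjusted p at or under 0.05, with 4.36% lower and 2.68% higher. The fitted log2 fold change was below 0 for 18 of 18 cytosolic and 13 of 16 mitochondrial members, against 46.4% of all genes. The median log2 fold change was -0.38 for the cytosolic and -0.23 for the mitochondrial set, beside 0.04 for all genes. With 1 refed library left out, 0 cytosolic and at most 1 mitochondrial member passed, where 1.43% and 0.796% of all genes did without WT Refed mouse 1 and mouse 2. With limma's voom and quality weights 11 and 6 members passed, all lower, where 24.8% of all genes passed and 13.8% were lower. With edgeR's exact test 5 and 4 passed, where 8.87% of all genes did.

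The 2 subunits of the cytosolic phenylalanine enzyme were both lower in fasted livers. Farsb (chr1:78417975-78488897) was at 31.6 and 34.7 CPM in WT Refed and at 19.5, 17.6 and 19.4 CPM in WT Fasting. It fell by 0.81 on the log2 scale (SE 0.16, edgeR adjusted p = 0.0117). Farsa was at 22.4 and 24.6 CPM in WT Refed and at 15.7, 16.1 and 18.6 CPM in WT Fasting. The groups did not overlap for either subunit, but Farsa, with a log2 fold change of -0.48 (SE 0.15), did not pass (edgeR adjusted p = 0.0767).

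Among the other cytosolic enzymes outside the multisynthetase complex, Yars and Hars, the tyrosine and histidine enzymes, also fell. Yars (chr4:129189760-129219607) was at 37.3 and 34.6 CPM in WT Refed and at 23.1, 21.8 and 25.6 CPM in WT Fasting, a fall by 0.61 on the log2 scale (SE 0.13, edgeR adjusted p = 0.0174). Hars, on chromosome 18, was at 43.7 and 44.1 CPM in WT Refed and at 33.5, 29.4 and 34.3 CPM in WT Fasting, a fall by 0.44 (SE 0.11, edgeR adjusted p = 0.0392). No fasted liver reached the lower of the refed livers for either gene. Hars lies head to head with Hars2 and shares 9.81% of its exonic bases with it on the opposite strand. The strand setting of the counting was not given in the sources used here, so reads of such overlaps could not be assigned with certainty, which also touches the 9.47% of Farsb that Sgpp2 overlaps.

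Nars, Sars and Aars, the asparagine, serine and alanine enzymes, lay just above the threshold, with log2 fold changes of -0.47, -0.36 and -0.43 and edgeR adjusted p-values of 0.0547, 0.0619 and 0.0638. Aars was the most abundant cytosolic member in CPM, at 277.0 and 291.6 in WT Refed against 204.3, 191.6 and 238.8 in WT Fasting. The groups did not overlap for any of these 3 genes. Gars, which serves both compartments, had a log2 fold change of -0.22 (SE 0.11). Vars, the valine enzyme, and Cars, the cysteine enzyme, had values of -0.18 and -0.13. Tars, the threonine enzyme, had the value nearest 0. It was at 116.3 and 119.6 CPM in WT Refed and at 109.0, 115.8 and 120.1 CPM in WT Fasting, and its log2 fold change was -0.04 (SE 0.11). The 5 genes with the ATF4 core, among the 11 cytosolic genes with a promoter window, spanned nearly the whole range, from Tars to Iars. Whether the core relates to the fold changes was not tested.

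Of the 6 cytosolic members held in the multisynthetase complex, Iars alone passed the test. Iars (chr13:49682100-49734267) was at 53.6 and 59.3 CPM in WT Refed and at 37.1, 30.1 and 37.0 CPM in WT Fasting, and it fell by 0.70 on the log2 scale (SE 0.14, edgeR adjusted p = 0.0133). Rars, the arginine enzyme, had a value of the same size with a wider error, -0.72 (SE 0.20, edgeR adjusted p = 0.061). Its CPM was 52.5 and 60.6 in WT Refed against 33.0, 29.9 and 40.4 in WT Fasting. The log2 fold changes of the remaining 4 were -0.31 for Eprs, -0.15 for Dars, the aspartate enzyme, and -0.07 for both Kars and Lars, the leucine enzyme. Their adjusted p-values were 0.285 or more in edgeR's test. Thus the members of 1 complex spread from a log2 fold change of -0.07 to -0.72.

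Wars, the tryptophan enzyme and a gene known to be induced by interferon gamma, was split within the fasted group. It was at 28.1 and 30.6 CPM in WT Refed, at 13.7 and 14.3 CPM in WT Fasting mice 1 and 2, and at 39.1 CPM in WT Fasting mouse 3. The last was the highest Wars value of all 10 livers, in the library with the high interferon-induced genes. Its log2 fold change between WT Fasting and WT Refed was -0.39 (SE 0.37, edgeR adjusted p = 0.578) with this mouse and -1.08 (edgeR adjusted p = 0.00531) without it. Markers of Kupffer and immune cells also stood higher in that library, at 412.1 summed CPM against 192.3 and 213.1 in the other 2 fasted WT livers. The part of these cells or of interferon in the Wars value was not tested.

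**Figure D1:**
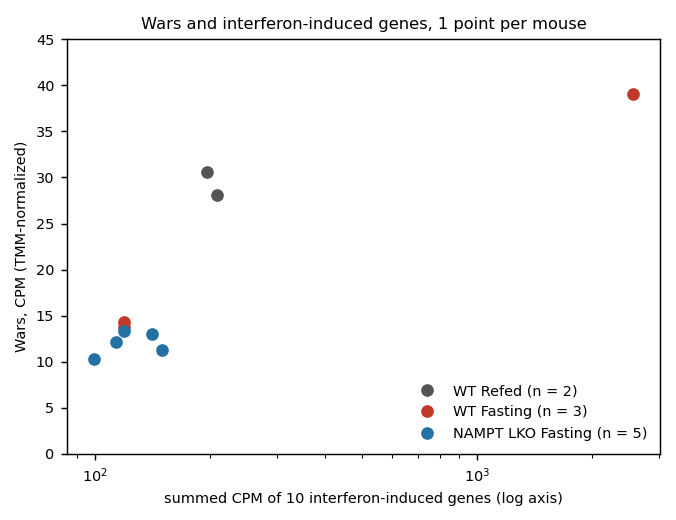
Wars, in TMM-scaled CPM, against the summed CPM of 10 interferon-induced genes without TMM factors (log axis), 1 point per mouse. WT Fasting mouse 3 lies alone at 2571 summed CPM and 39.1 CPM of Wars, while the other fasted livers of both genotypes lie between 10.3 and 14.3 CPM of Wars and the refed livers at 28.1 and 30.6.

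Among the mitochondrial synthetases, Ears2, the glutamate enzyme, had the largest fall. Ears2 (chr7:122037213-122067263) was at 19.7 and 22.5 CPM in WT Refed and at 11.0, 12.6 and 12.2 CPM in WT Fasting, a fall by 0.82 on the log2 scale (SE 0.14, edgeR adjusted p = 0.00678). Tars2 (chr3:95739976-95754977), the threonine enzyme, was at 24.3 and 25.1 CPM against 15.2, 16.5 and 14.7 CPM, a fall by 0.68 (SE 0.14, edgeR adjusted p = 0.0188). Rars2 (chr4:34614957-34660167), the arginine enzyme, was at 15.0 and 18.2 CPM against 10.3, 9.61 and 9.04 CPM, a fall by 0.78 (SE 0.20, edgeR adjusted p = 0.0413). Each of the 3 was lower in every fasted WT liver than in either refed liver. Mars2, the methionine enzyme encoded in a single exon, had a log2 fold change of -0.77 that did not pass (SE 0.22, edgeR adjusted p = 0.0626), at 5.45 and 5.53 CPM in WT Refed and 2.71, 3.88 and 3.08 CPM in WT Fasting.

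The other mitochondrial synthetases spread from a log2 fold change of -0.52 for Cars2 to 0.40 for Lars2, and 20.5% of the exonic bases of Cars2 overlap Naxd on the opposite strand. Yars2, Wars2, Hars2, Pars2 and Aars2 had values of -0.35, -0.30, -0.23, -0.22 and -0.11. Nars2, Vars2 and Sars2 lay between -0.09 and -0.01, and Iars2 and Fars2 were at 0.06 and 0.09. For Iars2, 22.7% of the exonic bases overlap Rab3gap2 on the opposite strand. Lars2, the leucine enzyme, was the member with the highest positive value and a wide error (SE 0.29, edgeR adjusted p = 0.455). It was at 269.8 and 194.8 CPM in WT Refed and at 283.7, 312.2 and 326.9 CPM in WT Fasting, so the groups did not overlap but the refed livers differed from each other by more than the fasted livers did.

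**Figure D2:**
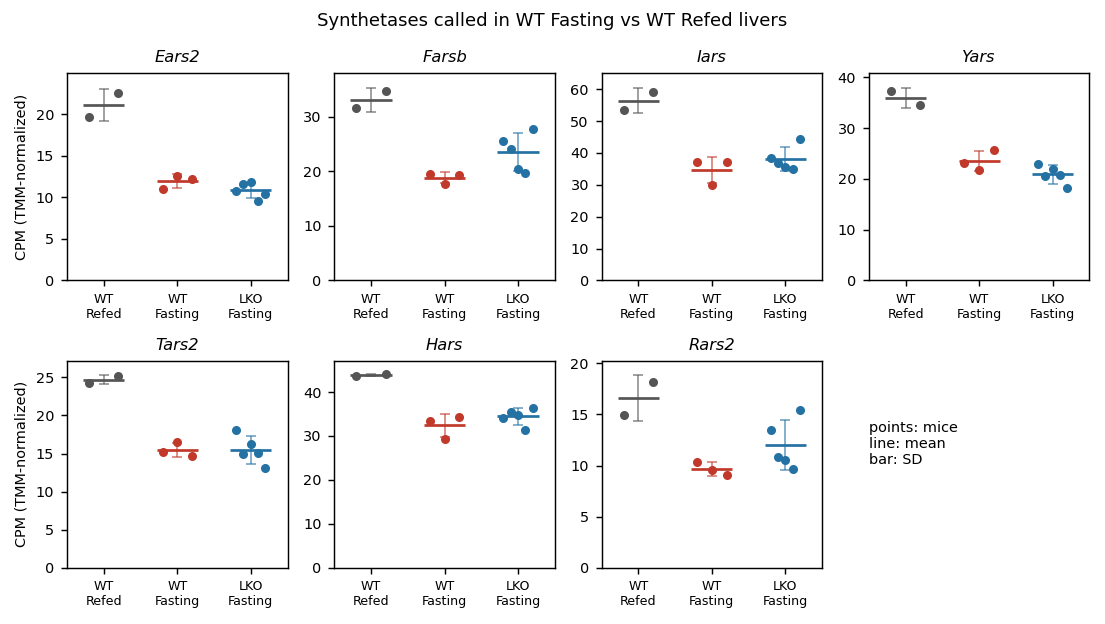
CPM (TMM-normalized) of the 7 synthetases that passed the test between WT Fasting and WT Refed, with 1 point per mouse, the group mean as a line and the SD as a bar. In each panel the 3 WT Fasting livers lie below both WT Refed livers, for example at 11.0 to 12.6 against 19.7 and 22.5 CPM for Ears2.

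Counted by overlap alone, 12 of 18 cytosolic members were lower in every WT Fasting liver than in either WT Refed liver and 0 were higher, and 8 of 16 mitochondrial members were lower and 2 (Fars2 and Lars2) were higher. Over all tested genes, 25.1% were lower in this way and 24.5% were higher. The expression of the cytosolic set, as the mean over members of the log2 CPM centred on the gene's mean, was 0.30 and 0.33 in WT Refed and -0.10, -0.15 and 0.08 in WT Fasting, where 0.08 belonged to mouse 3. The mitochondrial set was at 0.24 in both refed livers and at -0.02, -0.03 and -0.04 in the fasted WT livers. By this mean, each fasted WT liver lay below both refed livers in either set. The cytosolic members summed to 1208 and 1251 CPM in WT Refed and to 941.8, 916.7 and 1043 CPM in WT Fasting. The mitochondrial members summed to 537.7 and 461.3 CPM in WT Refed and to 518.9, 536.6 and 558.0 CPM in WT Fasting, so their sum overlapped between the groups. Without Lars2, the most abundant of them, the sums were 267.9 and 266.4 against 235.3, 224.4 and 231.1 CPM.

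The pairs for 1 amino acid did not move alike. Tars had a log2 fold change of -0.04 while Tars2 fell, and Eprs did not pass while Ears2 fell. In the other direction Iars fell while Iars2 was at a log2 fold change of 0.06, and Farsb fell while Fars2 was at 0.09. For arginine the cytosolic and mitochondrial values were close, at -0.72 and -0.78. Whether the members of a pair differed in their response was not tested.

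**Figure D3:**
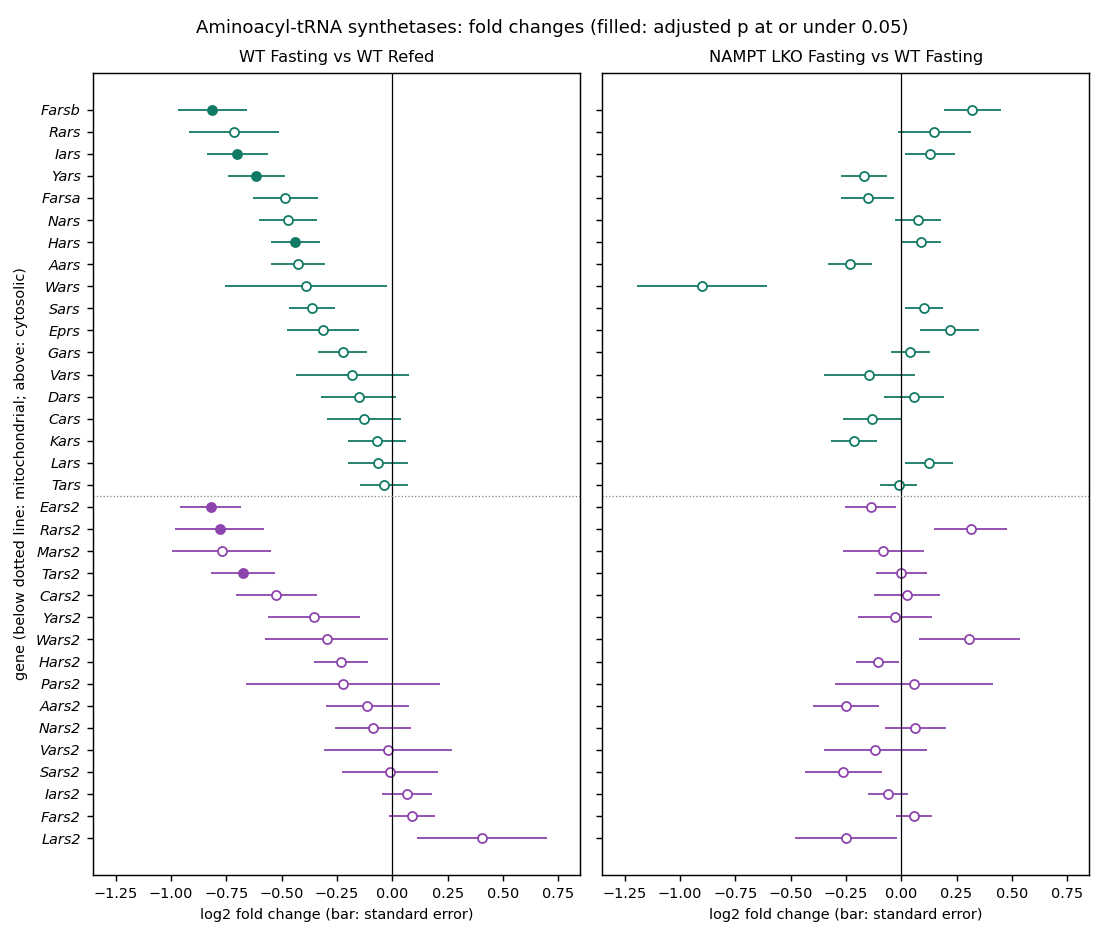
Fitted log2 fold changes of the 34 synthetases, with their standard errors, for WT Fasting against WT Refed (left) and NAMPT LKO Fasting against WT Fasting (right), cytosolic genes above the dotted line and mitochondrial genes below. Filled points had an adjusted p at or under 0.05, which 7 genes reached on the left and 0 on the right.

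Levels between genes were compared per exonic length, as mean RPKM (CPM divided by exonic kilobases). Exonic length counts all annotated exon bases, such as 9282 for Aars and 2636 for Tars, so the order of genes also rests on the annotation. The median level of the cytosolic set was 15.1 RPKM in WT Refed and 11.5 RPKM in WT Fasting, and that of the mitochondrial set was 5.30 and 3.75 RPKM. Tars was the highest cytosolic member, at 44.8 RPKM in WT Refed, and Cars the lowest at 3.97 RPKM. Lars2 was the highest of all members, at 59.9 ± 13.7 RPKM (SD, n = 2) in WT Refed and 79.3 ± 5.66 RPKM (SD, n = 3) in WT Fasting, against 6.93 and 6.63 RPKM for its cytosolic counterpart Lars. Mars2 and Pars2, the proline enzyme, were the lowest, at 0.486 and 0.657 RPKM in WT Refed. In 16 pairings by amino acid, in which Fars2 was set against each phenylalanine subunit and Eprs against both Ears2 and Pars2, the cytosolic gene was the higher in 13 in WT Refed, in 10 in WT Fasting and in 11 in NAMPT LKO Fasting livers. The glutamate ratio went from 6.66 in WT Refed to 9.47 in WT Fasting and the threonine ratio from 8.04 to 12.5, while the isoleucine ratio went from 1.51 to 0.887.

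**Figure D4:**
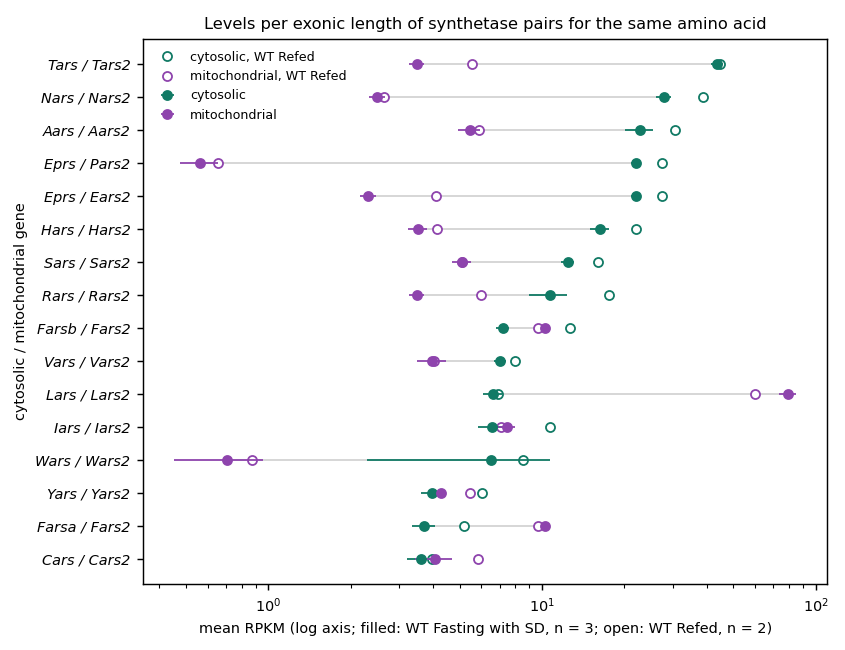
Mean RPKM (log axis) of cytosolic and mitochondrial synthetases paired by amino acid, with filled points and SD bars for WT Fasting (n = 3) and open points for WT Refed (n = 2). Most cytosolic genes lie to the right of their partner, with Lars and Lars2 in the reverse order at 6.63 and 79.3 RPKM in WT Fasting.

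The loss of hepatocyte Nampt was not accompanied by a detectable change of any synthetase in the fasted liver. Between NAMPT LKO Fasting and WT Fasting, 0 of 34 members passed edgeR's quasi-likelihood test, where 0.00744% of all genes passed, which is Nampt alone. edgeR's exact test, DESeq2 and voom also called 0 of 34, where 0.179%, 0.183% and 0.00744% of all genes passed. With so few genes passing, a count of 0 says little about the synthetases. At an unadjusted p under 0.05, 3 cytosolic and 0 mitochondrial members passed, against 6.03% of all genes. Log2 fold changes lay above 0 for 17 members and below 0 for 17 (49.9% of all genes were below 0), with medians of 0.05 for the cytosolic and -0.04 for the mitochondrial set. The lowest adjusted p among the members was 0.798 in edgeR's test, for Wars.

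The 3 cytosolic genes with the lowest p were Wars, Farsb and Aars. Wars was at 11.3, 13.4, 13.0, 12.1 and 10.3 CPM in NAMPT LKO Fasting livers, below each WT Fasting liver, and its log2 fold change was -0.90 (SE 0.29) with WT Fasting mouse 3 and -0.22 without it. Farsb was at 25.6, 24.1, 20.5, 19.7 and 27.8 CPM, above each WT Fasting liver, with a log2 fold change of 0.32 (SE 0.13, edgeR adjusted p = 0.827). These values lay between those of the fasted and the refed WT livers. Aars was at 187.0, 178.3, 168.0, 178.2 and 189.4 CPM, below each WT Fasting liver, with a log2 fold change of -0.23 (SE 0.10, edgeR adjusted p = 0.827). Groups that did not overlap were found for these 3 members of 34, 2 lower and 1 higher, and for 2.12% of all genes as lower and 1.87% as higher.

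The 3 mitochondrial genes with the lowest p were Rars2, Aars2 and Sars2. Rars2 was at 13.5, 10.9, 10.5, 9.69 and 15.5 CPM in NAMPT LKO Fasting livers, which overlapped WT Fasting, with a log2 fold change of 0.31 (SE 0.17, edgeR adjusted p = 0.837). Aars2 and Sars2, the alanine and serine enzymes, had log2 fold changes of -0.25 (SE 0.15) and -0.26 (SE 0.17). Their lowest values, 11.1 and 5.65 CPM, were those of LKO mouse 5. Ears2 and Tars2, which were lower in fasted than in refed WT livers, were at 9.58 to 11.8 and 13.1 to 18.1 CPM in NAMPT LKO Fasting livers. Cholangiocyte markers were higher in the LKO livers, at 34.6 to 51.0 summed CPM against 15.2 to 21.2 in WT Fasting. All 5 markers were above 0 in log2 fold change, and 0 of them passed edgeR's test. Their part in the synthetase values was not tested.

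Set against the same refed livers, NAMPT LKO Fasting livers had lower values of 7 cytosolic synthetases (Farsb, Yars, Farsa, Aars, Iars, Wars and Hars) and 3 mitochondrial synthetases (Ears2, Tars2 and Mars2), with 0 higher, where 11.2% of all genes passed with 6.58% lower and 4.65% higher. This comparison shares both refed livers with the comparison of WT livers, so the lists are not independent. Ears2 fell by 0.96 (SE 0.12, edgeR adjusted p = 0.00119) and Yars by 0.78 (SE 0.11, edgeR adjusted p = 0.00234). Wars fell by 1.29 (SE 0.32, edgeR adjusted p = 0.0292). The set medians were -0.34 for the cytosolic and -0.31 for the mitochondrial genes, beside 0.03 for all genes. Leaving out 1 refed library left 1 to 2 cytosolic members and 1 mitochondrial member, where 2.58% of all genes passed without WT Refed mouse 1 and 1.68% without mouse 2.

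NAMPT LKO mouse 5 departed from the other 4 LKO livers in several synthetases, and in both directions. Its CPM was highest of the 5 for Dars, Eprs and Nars and lowest for Vars and Yars2. Across the 34 members, Spearman's rho between the GC content of the longest transcript and the log2 ratio of mouse 5 to the median of mice 1 to 4 was -0.55, a description over genes of 1 library. All groups shared 1 estimate of the spread, and without this mouse 10 cytosolic and 5 mitochondrial members passed between WT Fasting and WT Refed. Calls rose over all genes too, from 7.04% to 16.6%, with 9.63% lower. Between the genotypes 0 members passed without this mouse, where 0.00744% of all genes did.

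**Figure D5:**
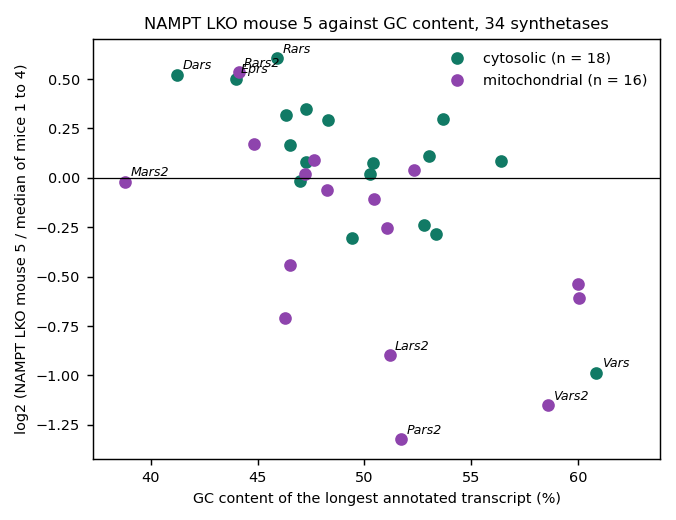
Log2 ratio of NAMPT LKO mouse 5 to the median of NAMPT LKO mice 1 to 4 against the GC content (%) of the longest annotated transcript, 1 point per synthetase. The genes of highest GC content, Vars, Sars2, Aars2 and Vars2, lie below 0, and several of low GC content such as Dars lie above 0 (Spearman's rho -0.55). Some genes depart from this order, such as Aars (56.4% GC, at 0.09) and Yars2 (46.3% GC, at -0.71).

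Genes that act with the synthetases were described from 4 lists. Of 14 tested cofactors and elongation factors, 1 fell between WT Refed and WT Fasting, where 7.04% of all genes passed. It was Eef1e1, a scaffold of the multisynthetase complex, which fell by 0.68 (SE 0.17, edgeR adjusted p = 0.0351). Without WT Fasting mouse 1 or mouse 2, 0 of the 14 passed, where 4% and 3.47% of all genes did. Without NAMPT LKO mouse 5, 5 passed, where 16.6% of all genes did. Aimp2, another scaffold of the complex, had a log2 fold change of -0.71 that did not pass (edgeR adjusted p = 0.0603). The elongation factors Eef2 and Eef1a1 had positive values of 0.68 and 0.39, with edgeR adjusted p-values of 0.0523 and 0.0783. Of 21 genes of mitochondrial translation, 0 passed in edgeR's test and 16 were below 0, with a median of -0.29. Without NAMPT LKO mouse 5, 9 of the 21 passed, all lower, where 16.6% of all genes passed and 9.63% were lower. With any 1 of the other fasted livers left out 0 passed, where 3.47% to 6.49% of all genes did. The 4 with the lowest p were Qrsl1, Mtrf1, Tufm and Ptcd3, at -0.79, -0.54, -0.29 and -0.50.

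The list of amino acid response genes, which ATF4 and the kinase GCN2 are known to drive, moved in both directions. Of 25 tested genes 6 rose and 2 fell between WT Refed and WT Fasting, where 2.68% of all genes rose and 4.36% fell. The 8 calls became 1 without either refed library, 4 and 3 without WT Fasting mouse 1 and mouse 2, 5 without WT Fasting mouse 3 or any 1 of NAMPT LKO mice 2 to 4, 6 without LKO mouse 1 and 9 without LKO mouse 5. The share of all genes that passed moved too, from 7.04% to 4% and 3.47% without WT Fasting mouse 1 and mouse 2. It was 16.6% without LKO mouse 5, and it also dropped without either refed library. Slc38a2, an amino acid transporter, rose by 1.35 (SE 0.15, edgeR adjusted p = 0.000984), and Ddit4, Cebpb and Sesn2 rose by 2.54, 1.48 and 1.77. Psph, an enzyme of serine synthesis, and Ddit3 fell. Atf4 itself had a log2 fold change of -0.27 (edgeR adjusted p = 0.416). Of 25 genes of the endoplasmic reticulum stress response, 19 fell and 0 rose, and 13 to 21 fell with 1 library left out. Over all genes 4.36% fell and 2.68% rose, and 9.63% fell without LKO mouse 5. Syvn1, Hyou1, Manf and Creld2, which act in protein folding and disposal, fell by 2.56, 2.33, 2.63 and 3.53 on the log2 scale. Between the fasted genotypes 0 genes of the 4 lists passed in edgeR's test. The lowest p in each list belonged to Ddit4 (-1.10), Syvn1 (-0.30), Eif2ak4 (-0.27) and Mtif2 (0.29), with edgeR adjusted p-values of 0.761 for Ddit4 and 0.837 for the other 3.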

How the data were processed

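The authors aligned reads to GRCm38 with STAR 2.5.1a, per the labels, and counted them per gene with featureCounts 1.4.6-p5. The strand setting was not given in the sources used here. The deposited files held gene counts with CPM and RPKM columns; recomputing these from the deposited counts gave the same CPM and RPKM. The labels were followed for fasting and refeeding, although the paper describes a different duration and fed controls.

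Counts were analysed with edgeR 4.0.16 in R 4.3.3. Genes over 1 CPM in at least 1 library were kept, ribosomal RNA genes were left out, and 13444 genes were tested. All 10 libraries entered 1 quasi-likelihood fit with TMM factors and 1 mean per group, and p-values were adjusted over all genes tested (Benjamini-Hochberg, called at 0.05). Printed CPM and RPKM are TMM-scaled, except the summed CPM of marker and interferon-induced genes, which are scaled to library size alone. Replicates differed by more than sampling noise. limma 3.58.1 (voom with quality weights), DESeq2 1.42.0, other scaling, filters and omitted libraries were alternatives.

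The members and the lists were chosen with earlier results of these data known, and the interferon genes after values were seen. All 34 members are reported, with full statistics for those called in WT Fasting against WT Refed and for the 3 of each set with the lowest p between genotypes, and for each other list up to 4 genes with the lowest p. Promoter windows came from RefSeq, and overlaps from the exon coordinates deposited with the counts. Gene types and GC content came from GENCODE vM21. Synthetases outside the member list were not analysed here. The promoter sequence of Aars is not reported here.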

Additional observations from a re-analysis of the deposited data

Results flagged for a closer look

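In 5 of the 36 values tested within the NAMPT LKO Fasting group, 1 liver stood far from the other 4 (Dixon's ratio of the gap to the range above 0.71), where chance gives about 1 in 20, or 1.8. The liver was mouse 5 each time. Dars was at 76.7 CPM against 51.6 to 55.8 in the other 4 (ratio 0.831). Eprs was at 162.9 CPM against 109.0 to 118.9 (0.815), and Nars at 93.1 CPM against 71.3 to 77.1 (0.735). Mouse 5 was lowest for Vars, at 19.5 CPM against 37.3 to 43.8 (0.731), and for Yars2, at 8.63 CPM against 13.8 to 15.4 (0.759). These 5 values come from 1 library and are not independent of each other.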

How the results depend on the processing

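Between WT Fasting and WT Refed, no alternative called a member as higher. The cytosolic count of 4 became 11 with voom, 9 with DESeq2, 9 with only the 2 groups fitted and 11 without NAMPT LKO mouse 5 and WT Fasting mouse 3 together, an alternative chosen after seeing the data. The mitochondrial count of 3 became 6 with voom and 5 without both mice. The share of all tested genes called went from 7.04% to 24.8%, 12.3%, 12% and 17% in these 4 settings. Leaving out 1 library at a time gave 0 to 10 cytosolic and 0 to 5 mitochondrial calls: 10 and 5 without LKO mouse 5 (16.6% of all genes), 2 and 1 without WT Fasting mouse 1, 1 and 2 without WT Fasting mouse 2, 0 and 1 without WT Refed mouse 1, and 0 and 0 without WT Refed mouse 2. A lone refed library is assumed to vary like the other groups. Of 21 alternatives, Ears2 was called in 20, Farsb in 19, Iars and Tars2 in 18, Yars in 17, Rars2 in 13 and Hars in 12. Both set medians stayed below 0 in each alternative run.

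Between the genotypes 0 members were called in each alternative, where at most 0.183% of all genes passed, so these counts say little about the synthetases. Same-numbered WT and LKO livers had correlations across genes of 0.104, 0.0782 and 0.0971. Different-numbered livers had correlations of -0.167 to 0.130, and of -0.167 to 0.032 when only LKO mice 1 to 3 were used. The main fit did not pair the livers. A fit of libraries 1 to 3 with the replicate number as a block called 0 members. So did the same libraries without the block, and both fits called 0% of all genes. The medians were -0.02 (cytosolic) and -0.00 (mitochondrial) in both.

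Against WT Refed, the NAMPT LKO Fasting counts of 7 and 3 became 12 and 8 with voom and 11 and 6 without both mice, where the share of all genes went from 11.2% to 31.8% and 24.8%. The mitochondrial count became 5 with DESeq2, 5 with library size alone and 5 with the GC trend removed (16.8%, 10.6% and 15.1% of all genes). Leaving out 1 library gave 1 to 10 cytosolic and 1 to 5 mitochondrial calls: 4 cytosolic without any 1 of LKO mice 1 to 4, 5 mitochondrial without LKO mouse 5 (21.1% of all genes), 2 and 1 without WT Refed mouse 1, and 1 and 1 without WT Refed mouse 2. The cytosolic median became -0.42 with library size alone, and the mitochondrial median -0.21 without both mice (leaving out 1 library, -0.39 to -0.21).

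Values near 0 changed sign. Sars2 in the fasting comparison became 0.023 with voom and 0.043 without both mice (leaving out 1 library, -0.072 to 0.033). Leaving out 1 library gave -0.122 to 0.064 for Vars2, -0.299 to 0.042 for Cars and -0.014 to 0.127 for Iars2. Tars2 between genotypes became -0.000316 with voom, -0.017 with library size alone, -0.000483 with DESeq2 size factors, -0.00145 with filterByExpr and -0.00969 with no filter (leaving out 1 library, -0.061 to 0.054). The cause of these changes was not tested, beyond the fewer libraries in those that omit some. The 2 refed livers limit the first and the third comparison most.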
